A study of Mus musculus with 12 samples.

Results

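Uptake of apoptotic cells was described through 10 genes, chosen by symbol from the 23420 symbols of the expression table. They encode 3 bridging proteins (Mfge8, Gas6 and Pros1), the 3 TAM receptor tyrosine kinases (Axl, Mertk and Tyro3), 3 other uptake receptors (Cd36, Timd4 and Stab1) and the engulfment adaptor Elmo1. All 10 symbols have a row in the table. RNA was measured in cells of mouse epidermis that a sort took as CD45+CD3-CD11b+MHCII+, in tubes of 100 cells, with 3 libraries in each of 4 groups. The groups were Cbfβ2 knockout cells at 1.5 months after birth (1.5M KO), wild-type cells at 1.5 months (1.5M wt), Cbfβ2 knockout cells at day 5 after birth (P5 KO) and wild-type cells at day 5 (P5 wt). Cbfβ2 is a splice form of the non-DNA-binding partner of the Runx transcription factors. The sources used here do not give the strain, the way the allele was made or the number of animals behind a tube, so p-values measure the spread between library preparations, which may be technical.

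A dying cell exposes phosphatidylserine on its surface. Gas6 and Pros1, which encode growth arrest specific 6 and protein S, bind this lipid and the TAM receptors together, while the Mfge8 product, milk fat globule EGF factor 8, links it to αv integrins. Timd4 (TIM-4) and Stab1 (stabilin-1) bind the lipid directly, and Cd36 is a scavenger receptor for thrombospondin and oxidised lipids. ELMO1 acts with a DOCK protein to activate the GTPase Rac, which drives closure of the phagocytic cup. In skin, Langerhans cells and macrophages are among the cells known to take up dying cells.

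Values are molecule counts that the authors scaled to the same total of 37092 in every library, called scaled counts here. The libraries held between 30913 and 77419 molecules, with 74620 to 77419 in 1.5M KO against 40254 to 51848 in 1.5M wt, and 30913 to 51001 in P5 KO against 34192 to 52208 in P5 wt. Cbfb itself lay between 0.994 and 2.40 in 1.5M KO against 7.15 to 13.8 in 1.5M wt, and between 1.45 and 3.63 in P5 KO against 3.91 to 4.97 in P5 wt. A 3' count does not separate the deleted splice form from others, so it checks the gene only. Of the genes behind the sort, Ptprc (CD45), Itgam (CD11b) and H2-Ab1 (MHC class II) were counted in all 12 libraries and Cd3e in none. Cd207, which encodes langerin, lay between 18.7 and 24.9 in 1.5M KO against 189 to 252 in 1.5M wt. It was 0 in P5 KO against 0.710 to 2.93 in P5 wt. Replicate libraries disagreed beyond counting error in every group (chi-square divided by its degrees of freedom, 1.17 to 2.18), so each counted as 1 sample. Differences were tested with limma on log2(scaled count + 1), with p adjusted over all 10023 genes tested and called at an adjusted p under 0.05.

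Of the 10 members, 4 averaged at least 5 scaled counts in some group (Mfge8, Axl, Cd36 and Elmo1), and 3 were counted at a few molecules (Gas6, Pros1 and Stab1). The other 3, Mertk, Tyro3 and Timd4, had 0 molecules in all 12 libraries. With 0 of 610367 molecules, a level of up to 3 molecules in all, or 0.182 scaled counts averaged over the 12 libraries, remained possible by counting error. Axl was therefore the only TAM receptor gene of the 3 that was counted in these cells. The 7 counted members were above 0 in at least 3 of the 12 libraries and entered the tests.

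**Figure D1:**
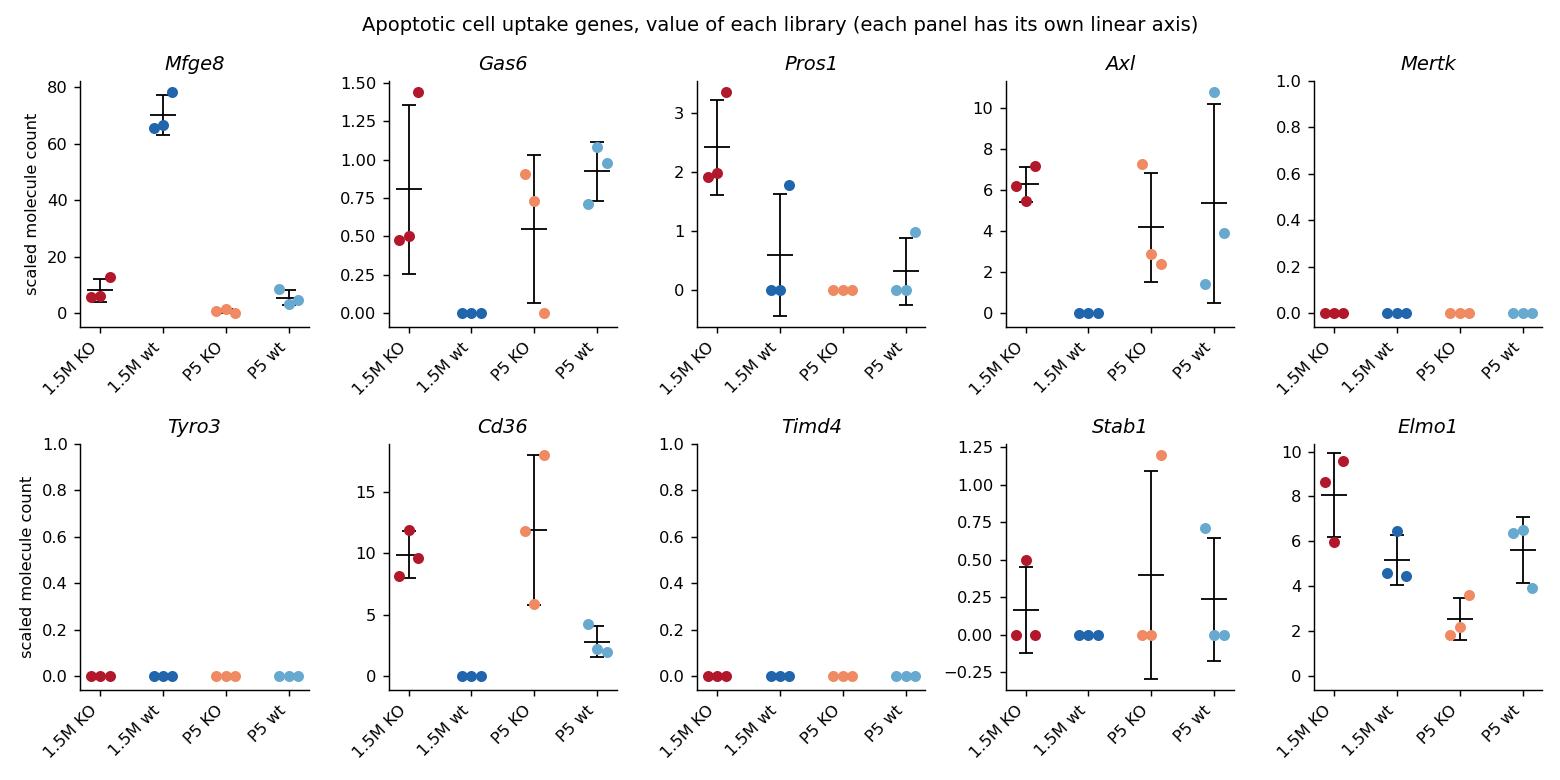
Scaled molecule count of each member (vertical axis, linear, separate for each panel) in the 4 groups (horizontal axis); points are libraries, and bars are the mean ± SD over 3 libraries. Mfge8 lay between 65.4 and 78.2 in 1.5M wt, where Axl and Cd36 were 0 in every library, while Mertk, Tyro3 and Timd4 were 0 throughout.

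The 3 members with the clearest changes, Mfge8, Axl and Cd36, are shown by the 250 bases before their RefSeq transcription start, because Cbfβ acts with Runx proteins on the core sequence TGTGGT or TGCGGT. Both motifs were searched on both strands in windows of 250 bases before to 50 bases after each start; the motifs differ at 1 base, so no match counts for both. The windows lie on the minus strand at chr7:79149061-79149310 (Mfge8), chr7:25788734-25788983 (Axl) and chr5:17835897-17836146 (Cd36), in RefSeq's GRCm38.p6, the assembly also called mm10. Each is written 5' to 3' on the strand of transcription, and capitals mark the motif.
Mfge8: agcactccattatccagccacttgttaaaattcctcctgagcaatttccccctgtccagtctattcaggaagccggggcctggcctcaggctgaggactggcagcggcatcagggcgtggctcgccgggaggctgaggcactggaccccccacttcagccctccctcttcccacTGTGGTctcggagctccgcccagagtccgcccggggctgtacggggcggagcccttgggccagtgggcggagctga
Axl: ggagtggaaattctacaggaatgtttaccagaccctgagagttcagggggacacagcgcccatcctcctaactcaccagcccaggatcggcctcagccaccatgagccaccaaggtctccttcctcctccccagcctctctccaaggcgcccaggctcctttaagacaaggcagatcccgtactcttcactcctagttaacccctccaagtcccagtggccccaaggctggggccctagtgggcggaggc
Cd36: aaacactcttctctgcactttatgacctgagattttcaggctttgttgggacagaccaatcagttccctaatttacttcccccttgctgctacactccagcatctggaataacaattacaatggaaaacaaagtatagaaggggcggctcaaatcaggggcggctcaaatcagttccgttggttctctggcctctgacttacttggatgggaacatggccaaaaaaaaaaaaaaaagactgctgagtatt
Mfge8 held 1 TGTGGT, which began 76 bases before the start on the strand of transcription. Gas6 held TGCGGT on the opposite strand at 142 bases before and 26 bases after its start. The windows of the other 8 members, Axl and Cd36 among them, had no match. Of all 32851 windows, 22.4% held a match, and 2 of the 11 member windows did (18.2%; Elmo1 has 2 starts). Cd36 has a gene model that reaches further upstream in GENCODE, and starts outside this window were not searched.

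Mfge8 (chromosome 7, 79133768 to 79149060, GRCm38, GENCODE annotation) had 5.75, 5.97 and 12.9 scaled counts in the 3 libraries of 1.5M KO, against 65.4, 66.5 and 78.2 in 1.5M wt. Every knockout library was below every wild-type library at this age. The means were 8.22 ± 4.09 in 1.5M KO and 70.0 ± 7.07 in 1.5M wt (SD, n = 3 each), so the level was 8.52-fold lower in 1.5M KO (limma log2 fold change −3.03, SE 0.38, adjusted p = 1.05e-05). At P5, the same gene had 0.91, 1.45 and 0 in P5 KO, against 8.53, 3.25 and 4.88 in P5 wt. The groups did not overlap, but P5 KO rests on 3 molecules in all, against 20 in P5 wt (ratio 0.152, 95% exact counting interval 0.0289 to 0.512). The fall at P5 passed the threshold (limma log2 fold change −1.89, SE 0.38, adjusted p = 0.0111). That call was lost without P5 KO library 3 (adjusted p = 0.0558) or P5 wt library 1 (0.0682). It was also lost with a pseudocount of 10, by thinning (molecules drawn at random to an equal number a library), by voom (limma with weights from approximate molecules) and when only the P5 libraries were fitted, with the genes above 0 in at least 3 of them or with all 10023.

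The bridging ligands of the TAM receptors were near the counting limit. Gas6 (chromosome 8, 13465374 to 13494490) had 0.48, 0.50 and 1.44 in 1.5M KO, from 5 molecules, against 0 in each 1.5M wt library. It had 0.91, 0.73 and 0 in P5 KO against 0.71, 1.08 and 0.98 in P5 wt, and no difference of Gas6 passed the threshold (adjusted p from 0.211 to 0.870 over the 4 comparisons, by limma). Pros1 (chromosome 16, 62854307 to 62929346) had 1.92, 1.99 and 3.35 in 1.5M KO, against 0, 0 and 1.78 in 1.5M wt. The 1.5M groups of Pros1 did not overlap, with 15 molecules in 1.5M KO and 2 in 1.5M wt (ratio 4.37, 95% exact counting interval 1.02 to 39.4), and limma gave a log2 fold change of 1.26, SE 0.47, adjusted p = 0.155. Without 1.5M wt library 3, which holds both wild-type molecules, the adjusted p was 0.0296. At P5 a single Pros1 molecule was counted, in P5 wt library 3, and none in P5 KO.

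Axl (chromosome 7, 25757273 to 25788705), the receptor tyrosine kinase with Gas6 as its main ligand, had 6.23, 5.47 and 7.19 in 1.5M KO, against 0 in each of the 3 1.5M wt libraries. The 1.5M KO libraries held 11 to 15 Axl molecules each. The mean of 6.30 ± 0.861 was at least 7.58-fold higher than the floor of 3 molecules over the 1.5M wt group, which is 0.831 scaled counts (limma log2 fold change 2.86, SE 0.50, adjusted p = 0.000551). Thinned to 30797 molecules a library, the difference kept its direction and lost the call (adjusted p = 0.0937). At P5, Axl had 7.27, 2.91 and 2.40 in P5 KO, against 1.42, 10.8 and 3.91 in P5 wt. The P5 groups overlapped and had means of 4.19 ± 2.67 in P5 KO and 5.39 ± 4.89 in P5 wt (log2 fold change −0.12, SE 0.50, adjusted p = 0.972), and the sign turned in several alternatives. The knockout effect on Axl differed between the ages (difference of log2 fold changes 2.98, SE 0.70, adjusted p = 0.0237 by limma). This call was lost without P5 KO library 2 (0.0653) or 3 (0.0633), P5 wt library 2 (0.0770) or 1.5M KO library 3 (0.0587), by thinning (0.410) and with a pseudocount of 10 (0.104).

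Cd36 (chromosome 5, 17781690 to 17888801) had 8.15, 11.9 and 9.58 in 1.5M KO, against 0 in each 1.5M wt library. The mean of 9.89 ± 1.91 was at least 11.9-fold higher than the floor of 0.831 (limma log2 fold change 3.43, SE 0.41, adjusted p = 4.63e-06), a call that held under every alternative run. At P5, Cd36 had 11.8, 5.82 and 18.0 in P5 KO, against 4.26, 2.17 and 1.95 in P5 wt. The groups again did not overlap, with means of 11.9 ± 6.09 in P5 KO and 2.80 ± 1.28 in P5 wt, a 4.25-fold higher level in P5 KO (limma log2 fold change 1.69, SE 0.41, adjusted p = 0.0356). The P5 call was lost without P5 KO library 1 (0.124) or 3 (0.164) or P5 wt library 2 (0.108) or 3 (0.126), and with a pseudocount of 0.1, by thinning, by voom and in the fit of its 6 libraries with all 10023 genes. For Cd36, the test of whether the knockout effect differed with age did not pass (1.74, SE 0.58, adjusted p = 0.142), but it passed with a pseudocount of 0.1 (4.63, adjusted p = 0.0101) and by voom (2.90, adjusted p = 0.0129).

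Stab1 (chromosome 14, 31139013 to 31168641) was counted at 1 molecule in each of 1.5M KO library 2, P5 KO library 3 and P5 wt library 1, and nowhere else. Elmo1 (chromosome 13, 20090596 to 20608353) had 8.63, 5.97 and 9.58 in 1.5M KO, against 4.61, 6.44 and 4.44 in 1.5M wt, which overlapped (log2 fold change 0.55, SE 0.36, adjusted p = 0.558). At P5 it had 1.82, 2.18 and 3.60 in P5 KO, against 6.39, 6.51 and 3.91 in P5 wt. Those groups did not overlap, yet the difference missed the threshold (−0.91, SE 0.36, adjusted p = 0.267 by limma). Elmo1 was counted in all 12 libraries, as was no other member.

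In all, limma called 2 members higher and 1 lower in 1.5M KO against 1.5M wt, and 1 higher and 1 lower in P5 KO against P5 wt. Over the 10023 genes tested, 5.28% were called at 1.5M (3.24% higher and 2.04% lower) and 1.80% at P5 (1.15% higher and 0.649% lower). Leaving out any 1 of the P5 libraries other than P5 wt library 1 took the 180 genes called at P5 to between 72 and 116, and leaving out P5 wt library 1 took them to 123. The difference between the ages was called for 1 member, Axl, while 2.0% of all genes were called, 1.32% higher and 0.678% lower.

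**Figure D2:**
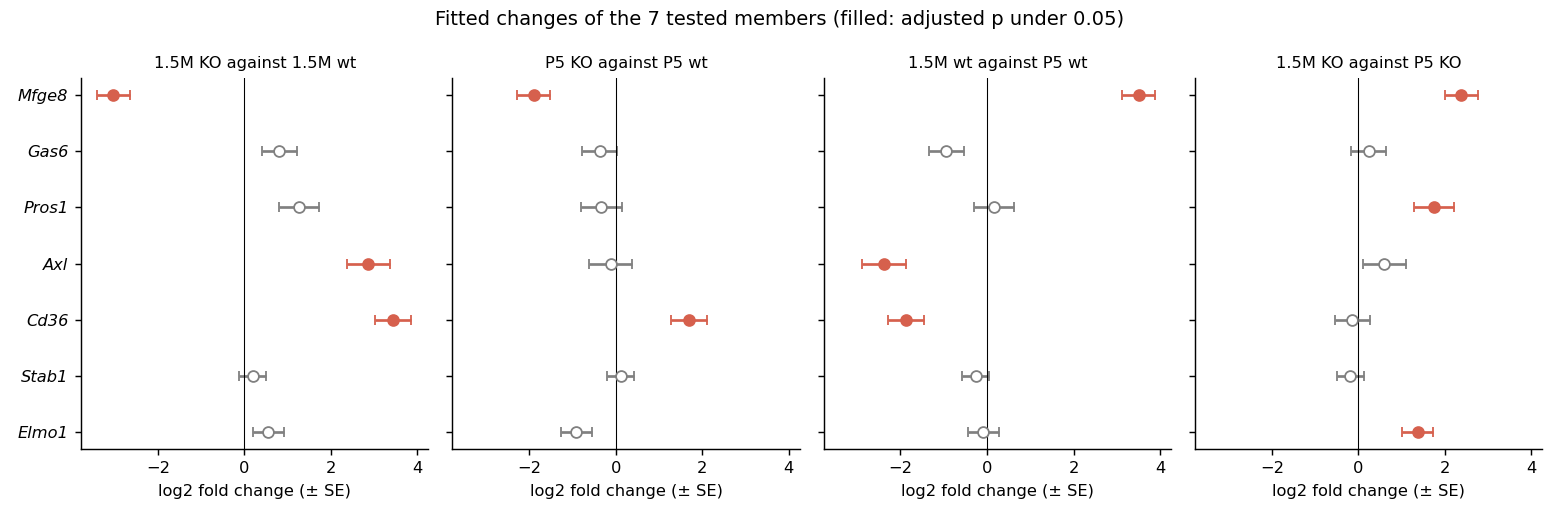
Fitted log2 fold change of the 7 tested members (horizontal axis, ± SE) in 4 comparisons; filled points passed an adjusted p of 0.05 in limma. Mfge8 lay at −3.03 and Axl and Cd36 at 2.86 and 3.43 for 1.5M KO against 1.5M wt, and the signs of these 3 genes were the opposite for 1.5M wt against P5 wt.

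With age, wild-type cells changed in the same 3 members. Mfge8 averaged 70.0 ± 7.07 in 1.5M wt and 5.55 ± 2.70 in P5 wt, 12.6-fold higher at 1.5M (limma log2 fold change 3.51, SE 0.38, adjusted p = 2.17e-06). Axl and Cd36 were 0 in 1.5M wt, against means of 5.39 ± 4.89 and 2.80 ± 1.28 in P5 wt. Both were called lower at 1.5M by limma (adjusted p = 0.00461 and 0.00683), and the floor of 1.5M wt lay 6.49-fold and 3.36-fold below these means. Both of these calls were lost with a pseudocount of 10, that of Axl also by thinning, and both when the 6 libraries were fitted with all 10023 genes. Gas6 had 1 molecule in each P5 wt library and none in 1.5M wt, a difference that was not called (adjusted p = 0.211), and Elmo1 averaged 5.16 ± 1.11 in 1.5M wt and 5.60 ± 1.47 in P5 wt. This made 1 member higher and 2 lower, while 5.21% of all genes were called, 2.36% higher and 2.84% lower. Of the genes called, 45.4% were higher, or 61.1% under median-of-ratios scaling.

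In the knockout, Mfge8 also rose with age, while Axl and Cd36 were counted at both ages. Mfge8 averaged 8.22 ± 4.09 in 1.5M KO and 0.788 ± 0.735 in P5 KO (51 molecules in 1.5M KO and 3 in P5 KO; ratio 9.08, 95% exact counting interval 2.94 to 45.5; limma log2 fold change 2.38, SE 0.38, adjusted p = 0.000460). That call was lost in the fit of its 6 libraries with all 10023 genes (0.0881). Axl averaged 6.30 ± 0.861 in 1.5M KO and 4.19 ± 2.67 in P5 KO, and Cd36 averaged 9.89 ± 1.91 in 1.5M KO and 11.9 ± 6.09 in P5 KO, with overlapping libraries in both cases (adjusted p = 0.681 and 0.935). Elmo1 was 3.18-fold higher at 1.5M, with 8.06 ± 1.88 in 1.5M KO and 2.53 ± 0.942 in P5 KO (log2 fold change 1.37, SE 0.36, adjusted p = 0.0327). Its call was lost without P5 KO library 1 (0.123) or 2 (0.0860) or 1.5M KO library 1 (0.140), 2 (0.0602) or 3 (0.190), with a pseudocount of 0.1, by thinning, by voom and in both fits of its 6 libraries. Pros1 was also called higher, with a mean of 2.42 ± 0.809 in 1.5M KO, 2.67-fold above the floor of P5 KO, where it was 0 (limma adjusted p = 0.0395). That call was lost without any 1 of the 6 libraries (adjusted p from 0.0637 to 0.135) and with a pseudocount of 0.1. It was also lost without the filter on low genes and in the fit of its 6 libraries with all 10023 genes. These are 3 members higher and 0 lower, while 3.14% of all genes were called, 1.72% higher and 1.43% lower. Higher genes were 54.6% of the genes called, or 30.9% by voom. The comparisons with age share their groups with the comparisons of genotype, so their values are not independent of each other.

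Seen within a library, the make-up of the member molecules changed with group. A 3' molecule count does not grow with transcript length, but capture can differ between genes. Mfge8 made up 18.5% to 29.3% of the 65 to 92 member molecules of a 1.5M KO library, against 91.2% to 93.4% of the 76 to 102 of a 1.5M wt library. Cd36 made up 21.7% to 36.9% and Axl 16.3% to 20% in 1.5M KO, against 0% in 1.5M wt. At P5 the member molecules were few, 18 to 25 in a P5 KO library against 17 to 31 in a P5 wt library. There, Cd36 made up 44.4% to 71.4% in P5 KO against 9.09% to 19.4% in P5 wt, and Mfge8 0% to 11.1% in P5 KO against 13.6% to 38.7% in P5 wt.

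**Figure D3:**
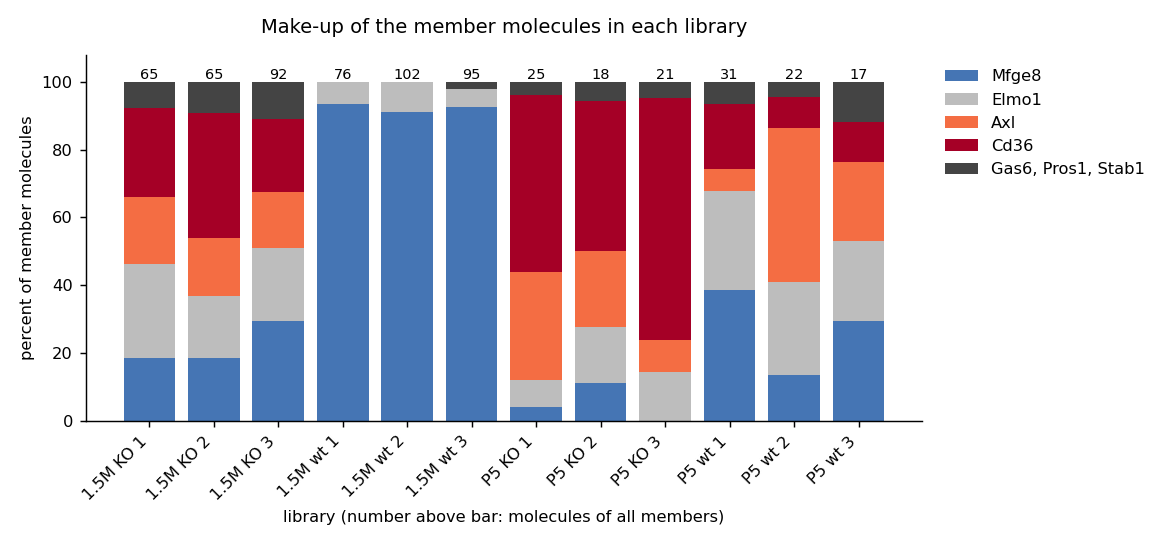
Share of each member in the molecules of all 10 members (vertical axis, percent) for each library (horizontal axis), with the number of member molecules above each bar. Mfge8 fills 91.2% to 93.4% of the 1.5M wt bars, and no 1.5M wt bar holds Axl or Cd36.

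Markers of cell types also differed between the groups. A list of 7 Langerhans cell genes, among them Cd207, Epcam, Cdh1, Cldn1, Ltc4s and Cd1d1, summed to 29.8 to 42.2 in 1.5M KO against 324 to 407 in 1.5M wt, with 5 of its 7 tested genes lower, and Cd1d1 was 0 in both groups. A list of 12 macrophage and monocyte genes summed to 500 to 585 in 1.5M KO against 78.7 to 97.3 in 1.5M wt, with 6 of 11 tested genes higher. Of that list, Fcgr1 and Ccr2 were 0 in 1.5M wt and Ly6c2 was 0 in both groups. The 1.5M wt libraries thus had the highest Langerhans cell sums together with the highest Mfge8, and the lowest macrophage sums together with no Axl or Cd36. At P5, the Langerhans cell sum was 11.8 to 17.7 in P5 KO against 59.7 to 72.3 in P5 wt (5 of 7 genes lower, 1 higher), and the macrophage and monocyte sum 195 to 218 in P5 KO against 144 to 177 in P5 wt (4 of 11 tested genes higher). Between some groups the order of the members' means differed from that of these sums, though the member libraries overlapped each time. Mfge8 averaged 5.55 in P5 wt and 8.22 in 1.5M KO, while the Langerhans cell sums were higher in P5 wt. Those Mfge8 libraries overlapped (3.25 to 8.53 in P5 wt, 5.75 to 12.9 in 1.5M KO), and P5 wt was not tested against 1.5M KO. Cd207 alone of that list was higher in 1.5M KO, at 21.0 against 1.58 in P5 wt. Cd36 averaged 11.9 in P5 KO and 9.89 in 1.5M KO, with overlapping libraries, while the macrophage sums were higher in 1.5M KO. Axl averaged 4.19 in P5 KO and 5.39 in P5 wt, with overlapping libraries. In bulk RNA from 100 cells, fewer cells of a type and less RNA per cell cannot be told apart, and the part of these cell types in the members' changes was not tested.

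RNA of marker genes of other cell types was also counted in the P5 libraries. The 10 keratinocyte genes summed to 221 to 648 in P5 KO against 61.5 to 86.2 in P5 wt (3 of 10 higher), and 9 neutrophil genes to 51.9 to 234 in P5 KO against 7.95 to 20 in P5 wt (2 of 4 tested higher), with Mpo and Elane at 0 in both groups. Of the neutrophil list, Cxcr2 averaged 4.97 in P5 KO and 6.80 in P5 wt, and Csf3r 3.77 in P5 KO and 3.67 in P5 wt. The 4 erythroid genes summed to 0.396 to 481 in P5 KO against 0 to 4.26 in P5 wt (1 of 3 tested higher). At 1.5M the keratinocyte sum was 7.19 to 19.2 in 1.5M KO against 7.51 to 34.1 in 1.5M wt, the neutrophil sum 4.53 to 6.45 in 1.5M KO against 1.62 to 9.18 in 1.5M wt, with S100a8 and S100a9 at 0 in both, and the erythroid sum at most 0.497. Whether the libraries held such cells, and their part in the P5 values of Mfge8 and Cd36, was not tested.

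**Figure D4:**
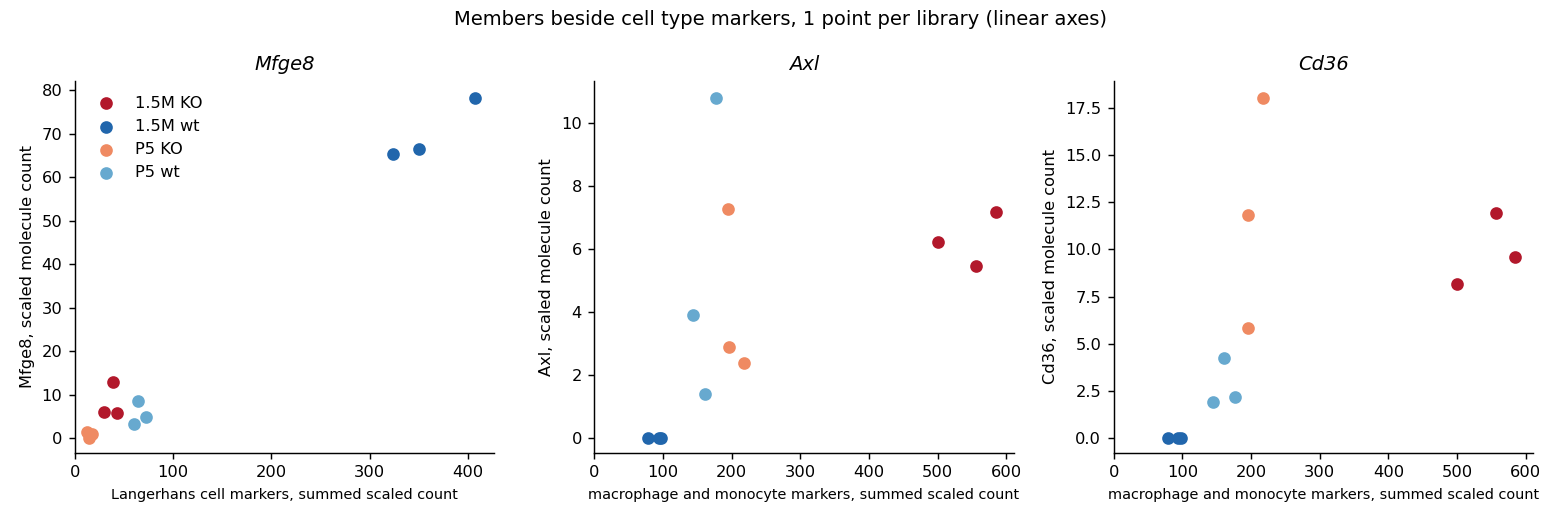
Scaled count of Mfge8, Axl and Cd36 (vertical axes) against the summed scaled count of Langerhans cell markers or of macrophage and monocyte markers (horizontal axes), 1 point for each of the 12 libraries. The 1.5M wt libraries lie at Langerhans cell sums of 324 to 407 with Mfge8 of 65.4 to 78.2, and at macrophage sums of 78.7 to 97.3 with Axl and Cd36 at 0.

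Other genes of apoptotic cell uptake were read from 5 lists. The first held 27 other uptake receptors and bridging proteins, of which 19 were tested. In 1.5M KO against 1.5M wt, 10 of the 19 were higher and 0 lower, while 3.24% of all genes were higher and 2.04% lower. The median log2 fold change was 1.17 (1.14 with groups at 0 set to the floor), against 0.09 (0.00) over all genes tested. The largest on the log2(scaled count + 1) scale were the complement genes C1qc, C1qb and C1qa, whose products bind apoptotic cells and which are also in the macrophage list. C1qc had 130, 150 and 150 in 1.5M KO, against 0, 2.15 and 0 in 1.5M wt (limma log2 fold change 6.62, SE 0.34, adjusted p = 5.76e-12). Lrp1, a large endocytic receptor that binds calreticulin on dying cells, had 22.5, 23.4 and 27.8 in 1.5M KO, against 0, 0.72 and 0.89 in 1.5M wt (4.11, SE 0.42, adjusted p = 4.86e-07). Among the 10 higher genes were both chains of an αv integrin that binds the Mfge8 product, Itgav and Itgb5. Itgb5 had 11, 9.94 and 7.67 in 1.5M KO and was 0 in each 1.5M wt library, where Mfge8 was highest. In 1.5M KO both genes were counted in each library, with means of 8.22 (Mfge8) and 9.55 (Itgb5). The same held in P5 wt, with means of 5.55 (Mfge8) and 6.22 (Itgb5). In P5 KO the means were 0.788 (Mfge8, from 3 molecules) and 5.38 (Itgb5), and library 3 had Itgb5 at 9.60 without Mfge8.

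At P5 the same list had 1 gene higher, the lipid receptor gene Cd300lf, and 1 lower of 19 tested, with a median of 0.35 (0.35 with groups at 0 at the floor) against −0.01 (0.00) over all genes. Over all genes, 1.15% were called higher and 0.649% lower, and the list's counts are too small to set apart from those shares. The lower gene was Havcr2 (TIM-3, a relative of Timd4), with 2.72, 3.64 and 1.20 in P5 KO against 9.24, 8.68 and 8.79 in P5 wt (log2 fold change −1.56, SE 0.40, adjusted p = 0.0472). That call was lost without any 1 of the 6 libraries (adjusted p from 0.0522 to 0.180) and under each of the other alternatives run (0.0502 to 0.347). With age, the list had 5 genes lower and 0 higher in 1.5M wt against P5 wt, namely Lrp1, Itgb5 and the 3 C1q genes. Of all genes, 2.84% were lower and 2.36% higher. Itgb5 was 0 in 1.5M wt and averaged 6.22 ± 0.723 in P5 wt, at least 7.48-fold lower (adjusted p = 6.24e-05 by limma). In 1.5M KO against P5 KO the list had 5 higher and 2 lower, while 1.72% of all genes were higher and 1.43% lower. C1qc averaged 143 ± 11.6 in 1.5M KO and 24 ± 5.08 in P5 KO (adjusted p = 4.42e-05, and 0.124 with a pseudocount of 0.1). Cd300ld, a lipid-binding receptor gene, averaged 7.89 ± 2.16 in 1.5M KO and 0.848 ± 0.914 in P5 KO (adjusted p = 0.00897, and 0.05 without P5 KO library 3), a call also lost with a pseudocount of 0.1 and in the fit of its 6 libraries with all 10023 genes. Thbs1 (thrombospondin-1, a ligand of CD36) averaged 0.822 ± 1.04 in 1.5M KO and 7.92 ± 2.47 in P5 KO (adjusted p = 0.0310), a call lost without P5 KO library 1 (0.114), 2 (0.0516) or 3 (0.107) or 1.5M KO library 1 (0.140) or 3 (0.0973), with a pseudocount of 0.1, by thinning and in the fit of its 6 libraries with all 10023 genes.

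**Figure D5:**
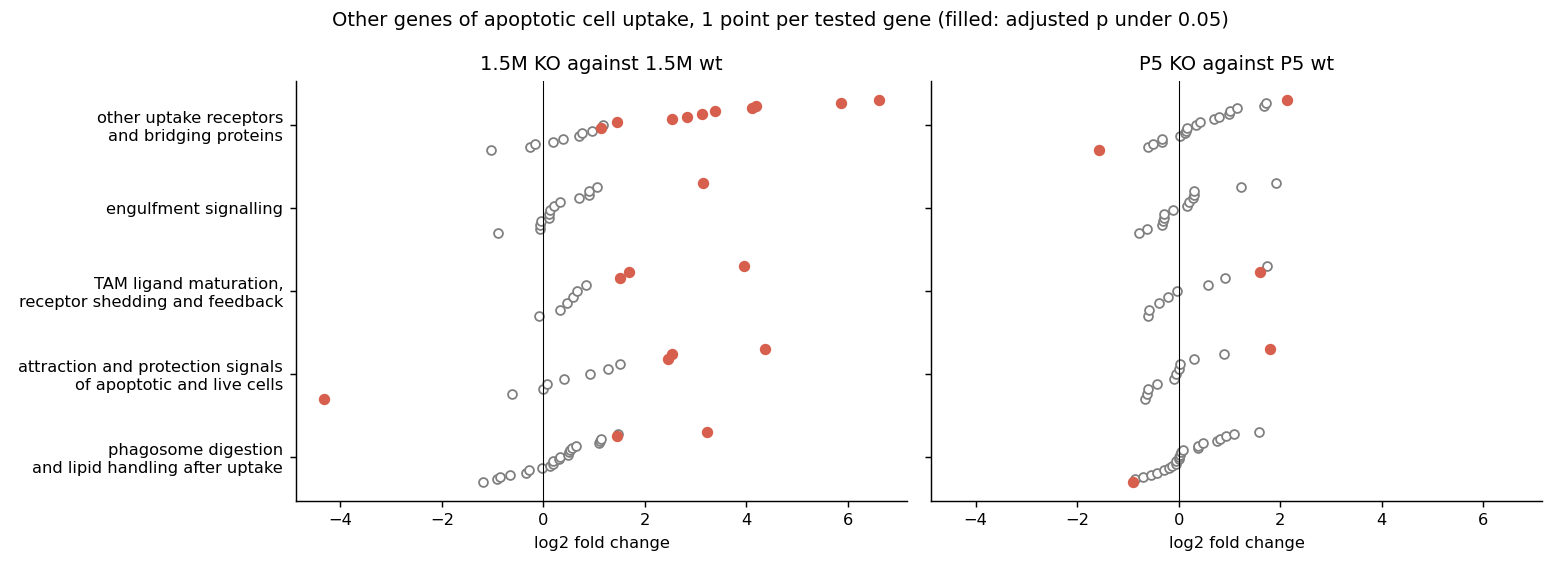
Log2 fold change (horizontal axis) of every tested gene of 5 lists of apoptotic cell uptake (vertical axis), for 1.5M KO against 1.5M wt and for P5 KO against P5 wt; filled points passed an adjusted p of 0.05 in limma. In the top list 10 of 19 genes were called higher at 1.5M, against 1 higher and 1 lower at P5. Over all genes tested, 5.28% were called at 1.5M and 1.80% at P5.

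Of 18 listed genes of engulfment signalling, 14 were tested, and 1 was higher and 0 lower in 1.5M KO against 1.5M wt, with a median of 0.17 (0.11 with groups at 0 at the floor), while 5.28% of all genes were called. That gene, Rac2, the Rac GTPase of blood cells, had 5.75, 6.96 and 12 in 1.5M KO and 0 in each 1.5M wt library, at least 9.90-fold higher (adjusted p = 6.46e-06 by limma). In 1.5M wt against P5 wt, Rac2 was lower, at 0 against 6.45 ± 3.72 (adjusted p = 5.36e-05, and 0.0521 in the fit of its 6 libraries with all 10023 genes), and Dock5, a Rac exchange factor, was higher. No gene of the list was called at P5 (0 of 14 by limma, with 1.80% of all genes called) or between the ages in the knockout (0 of 14, with 3.14%), counts too small to set apart from those shares.

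Around the TAM receptors, 12 genes of ligand carboxylation, receptor shedding and feedback were listed and 9 tested. In 1.5M KO against 1.5M wt, 3 were higher and 0 lower (median 0.67, or 0.58 with groups at 0 at the floor). Of all genes, 3.24% were higher and 2.04% lower. Socs3, a feedback inhibitor of cytokine receptors that TAM signalling induces, had 17.7, 20.4 and 22.0 in 1.5M KO, against 0, 1.43 and 0 in 1.5M wt (limma log2 fold change 3.96, SE 0.41, adjusted p = 6.32e-07). At P5 it averaged 8.80 ± 1.05 in P5 KO and 2.47 ± 1.66 in P5 wt (adjusted p = 0.0481), which was lost without P5 KO library 1 (0.161), 2 (0.0988) or 3 (0.105) or P5 wt library 2 (0.113) or 3 (0.205). It was also lost with a pseudocount of 0.1, without the filter on low genes, by thinning, by voom and in both fits of its 6 libraries. Adam17, a protease that sheds MERTK and AXL from the cell surface, averaged 8.08 ± 0.113 in 1.5M KO and 1.91 ± 0.895 in 1.5M wt (limma log2 fold change 1.69, SE 0.48, adjusted p = 0.0371). Without 1.5M KO library 1 (0.0979), 2 (0.0948) or 3 (0.104) or 1.5M wt library 1 (0.165) or 2 (0.0756) the Adam17 call was lost, as it was with a pseudocount of 0.1 and by thinning. Ifnar2, a chain of the type I interferon receptor through which TAM receptors act on dendritic cells, averaged 9.52 ± 2.99 in 1.5M KO and 3.10 ± 2.43 in 1.5M wt (adjusted p = 0.0209). Its call was lost without 1.5M KO library 1 (0.109) or 1.5M wt library 1 (0.150) or 3 (0.0539), with a pseudocount of 10, by thinning and in both fits of its 6 libraries. In 1.5M wt against P5 wt, Ifnar2 was the 1 gene called of this list, with 5.21% of all genes called. It was lower, at 3.10 ± 2.43 against 17.6 ± 7.51 in P5 wt (adjusted p = 0.000548 by limma, and 0.113 in the fit of its 6 libraries with all 10023 genes). In 1.5M KO against P5 KO, 0 of 9 were called by limma, with 3.14% of all genes called. Both counts are too small to set apart from those shares.

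Signals that attract phagocytes or protect live cells went both ways. Of 11 tested genes of 14, 3 were higher (Cx3cr1, P2ry6 and P2ry12) and 1 lower in 1.5M KO against 1.5M wt, with a median of 0.92 (0.86 with groups at 0 at the floor). Of all genes, 3.24% were higher and 2.04% lower. Cx3cr1, the receptor for the find-me signal fractalkine, had 15.3, 23.4 and 20.6 in 1.5M KO and 0 in each 1.5M wt library, at least 23.8-fold higher (adjusted p = 4.31e-08 by limma). It averaged 9.27 ± 2.83 in P5 KO and 2.0 ± 0.945 in P5 wt (adjusted p = 0.0148), which no longer passed without P5 KO library 2 (0.0522) or 3 (0.0735) or P5 wt library 3 (0.0858), with a pseudocount of 0.1, by voom and in the fit of its 6 libraries with all 10023 genes. Cd24a, which encodes the don't-eat-me protein CD24, had 0, 0.50 and 0 in 1.5M KO, against 24, 18.6 and 24 in 1.5M wt (log2 fold change −4.33, SE 0.51, adjusted p = 4.28e-06). With age in wild type, 2 of the 11 were higher and 2 lower, while 2.36% of all genes were higher and 2.84% lower. Gpr132, a receptor for the find-me lipid lysophosphatidylcholine, averaged 19.8 ± 4.50 in 1.5M wt and 2.50 ± 1.28 in P5 wt (adjusted p = 3.71e-05). P2ry12, a receptor for the nucleotide ADP, was 0 in 1.5M wt and 5.66 ± 0.220 in P5 wt (adjusted p = 0.000565). Cd24a averaged 22.2 ± 3.10 in 1.5M wt and 5.47 ± 4.4 in P5 wt (adjusted p = 0.0143), which no longer passed without P5 wt library 3 (0.0918) or 1.5M wt library 1 (0.0535) or 3 (0.0540), with a pseudocount of 0.1, by thinning and in the fit of its 6 libraries with all 10023 genes. In 1.5M KO against P5 KO, 1 gene, Cd24a, was lower, with 3.14% of all genes called.

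Genes of digestion and lipid handling after uptake had 2 of 23 tested members higher and 0 lower in 1.5M KO against 1.5M wt (median 0.32, or 0.31 with groups at 0 at the floor), while 3.24% of all genes were higher and 2.04% lower. Trem2, a lipid receptor of macrophages and microglia, had 5.27, 10.9 and 10.1 in 1.5M KO and 0 in each 1.5M wt library, at least 10.5-fold higher (adjusted p = 6.43e-05 by limma). Npc2, which carries cholesterol out of lysosomes, averaged 22.1 ± 2.91 in 1.5M KO and 7.52 ± 0.671 in 1.5M wt (adjusted p = 0.000252). At P5, Tyrobp, the signalling adaptor DAP12, was the 1 gene called, lower at 52.8 ± 11.6 in P5 KO and 98.6 ± 13.9 in P5 wt (limma log2 fold change −0.90, SE 0.22, adjusted p = 0.0343). Of all genes, 1.80% were called at P5. The Tyrobp call was lost without P5 KO library 1 (0.149) or 3 (0.0978) or P5 wt library 1 (0.0910), 2 (0.138) or 3 (0.0616), with a pseudocount of 0.1, by median-of-ratios scaling, by thinning and in the fit of its 6 libraries with all 10023 genes. With age in wild type, Npc2 and Tyrobp were lower and Pqlc2, a lysosomal amino acid transporter, higher. Npc2 averaged 7.52 ± 0.671 in 1.5M wt and 23.9 ± 3.99 in P5 wt (adjusted p = 0.000151). Tyrobp averaged 52.5 ± 17.1 in 1.5M wt and 98.6 ± 13.9 in P5 wt (adjusted p = 0.00998, lost without 1.5M wt library 1 at 0.0754 or P5 wt library 2 at 0.0574), a call also lost by median-of-ratios scaling, by thinning and in the fit of its 6 libraries with all 10023 genes. In 1.5M KO against P5 KO, 0 of 23 were called by limma, with 3.14% of all genes called, a count too small to set apart from that share.

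The genes whose pattern over the 12 libraries was most like each well-counted member were found by the root mean square difference of log2(scaled count + 1), each gene centred on its own mean, among 1940 genes averaging at least 5 in some group. For Mfge8 they were Ndrg1 (0.53), Grasp (0.68) and Tbc1d4 (0.78), against a median of 2.11 over the candidates. Ndrg1 had means of 8.09 in 1.5M KO against 49.4 in 1.5M wt, and 0.848 in P5 KO against 3.86 in P5 wt. For Axl they included Lpl (0.41) and Rasa4 (0.49), with a median of 1.31. Lpl, which encodes lipoprotein lipase, had means of 6.82 in 1.5M KO against 0 in 1.5M wt, and 3.39 in P5 KO against 2.33 in P5 wt. For Cd36 they were Pla2g7 (0.24), C3ar1 (0.33) and Cd97 (0.42), with a median of 1.54. Pla2g7, an enzyme that cleaves oxidised phospholipids, had means of 17.0 in 1.5M KO against 0.842 in 1.5M wt, and 19.3 in P5 KO against 6.46 in P5 wt. Elmo1 was most like Sfpi1 (0.26), the gene of the factor PU.1, Rhog (0.30) and Pqlc3 (0.31), with a median of 0.83.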

How the data were processed

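Cells sorted as CD45+CD3-CD11b+MHCII+ were lysed, and RNA was copied with an oligo-dT primer carrying a molecular barcode, per the labels' protocols. The submitters' processing notes name TopHat2 and the build mm10. How molecules were counted, annotated and scaled is not given in the sources used here. By its values the deposited signal is a molecule count that the authors scaled to a total of 37092 per library. Because only 92.6% to 94.9% of values above 0 were whole multiples (tolerance 0.01) of the value of 1 molecule, no count model was used, and molecules are approximate. The design had allowed for either.

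Log2(scaled count + 1) entered 1 limma model (version 3.58.1, R 4.3.3; trended prior variance) of the 4 group means over all 12 libraries and the 10023 genes above 0 in at least 3 of them. P-values are two-sided and were adjusted over these genes by Benjamini and Hochberg's method, with a threshold of 0.05. Every adjusted p comes from this model unless another setting is named, and fold changes on this scale understate those of low genes. Floors are 3 molecules over a group, and floors and intervals cover counting error only. A fold given as at least a value sets the mean of the counted group against the floor, and leaves out the error of that mean. Up to 4 genes a list and comparison were named, by largest called change with a group averaging at least 5. Some genes called outside that rule are named without a p, and others are only counted. Members and lists were chosen with earlier results of these data known. Of the 106 pathway entries, 3 were matched through an older symbol, and of 73 marker entries 2, with 3 unmatched. Alternatives were pseudocounts of 0.1 and 10, no filter on low genes, median-of-ratios scaling, 1 draw of thinning to 30797 molecules, voom, a replicate block, the 6 libraries of a comparison alone, and each library left out. Protein sequences were not used here, and some genes are not reported here.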

Additional observations from a re-analysis of the deposited data

Results flagged for a closer look

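The effect of the knockout differed between the ages, by limma's test of the difference between the log2 fold changes at 1.5M and at P5, for Axl and for the genes of the uptake lists given here. Lrp1, Itgav, Anxa5 and P2ry6 were also called, with differences of 2.96 (Lrp1), 2.39 (Itgav), 1.64 (Anxa5) and 3.15 (P2ry6). Values are the effect at 1.5M minus that at P5. Axl differed by 2.98, with 0 in every 1.5M wt library and overlapping groups at P5. C1qa (4.79), C1qb (6.20) and C1qc (6.60) averaged 113, 88.9 and 143 in 1.5M KO, against 5.40, 0.603 and 0.715 in 1.5M wt. At P5 they averaged 20, 21.6 and 24 in P5 KO, against 30.7, 28.3 and 23.6 in P5 wt. Itgb5 differed by 3.70, Cx3cr1 by 2.56 and P2ry12 by 3.08. Cd24a differed by −4.28, with 0.166 in 1.5M KO against 22.2 in 1.5M wt, and 4.60 in P5 KO against 5.47 in P5 wt. Socs3 differed by 2.36, a call lost when any 1 of 10 of the 12 libraries was left out (adjusted p up to 0.0957) and with a pseudocount of 0.1, and Npc2 by 1.44, lost without 1.5M KO library 1 (0.0708) or P5 wt library 3 (0.0618). Tyrobp differed by 1.41, with 72.5 in 1.5M KO against 52.5 in 1.5M wt, and 52.8 in P5 KO against 98.6 in P5 wt. By thinning, the calls of Axl, Cd24a, P2ry12, Tyrobp, Npc2 and Socs3 were lost.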

How the results depend on the processing

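The 3 calls of members at 1.5M, Mfge8, Axl and Cd36, held without each library in turn, where 3 to 4 members were called; Axl was lost by thinning. At P5, where 2 members were called, 1 was called with a pseudocount of 0.1, with a pseudocount of 10 and when only the libraries compared were fitted, and 0 by thinning, by voom and in a fit of the 6 libraries with all genes (a setting chosen after seeing the data, which keeps genes at 0 in all 6); leaving out a library gave 0 to 2. In 1.5M wt against P5 wt, 3 became 1 with a pseudocount of 10 and in the fit of 6 libraries with all genes. In 1.5M KO against P5 KO, 3 became 1 with a pseudocount of 0.1, 0 in the fit of 6 libraries with all genes and 1 to 2 without a library. For the difference between ages, 1 became 2 with a pseudocount of 0.1 and by voom, 0 by thinning and 0 to 1 without a library. The cause of these losses was not tested.

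Over all genes, the 180 calls at P5 became 92 with a pseudocount of 0.1, 118 without the filter, 56 by thinning, 0 in the 6 libraries with all genes and 72 to 123 without a library. The 529 calls of 1.5M KO against 1.5M wt became 809 by voom and 359 to 386 without a library. For 1.5M wt against P5 wt, 522 became 278 by thinning, 111 in the 6 libraries with all genes and 346 to 389 without a library. For 1.5M KO against P5 KO, 315 became 187 by thinning, 738 by voom, 86 in the 6 libraries with all genes and 169 to 246 without a library. For the difference between ages, 200 became 133 with a pseudocount of 0.1, 87 by thinning, 320 by voom and 141 to 193 without a library. Voom moved the median log2 fold change of all genes by −0.12 (1.5M KO against 1.5M wt), −0.13 (1.5M wt against P5 wt), −0.27 (1.5M KO against P5 KO) and −0.14 (difference between ages).

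Differences that were not called turned sign in some settings. Axl in P5 KO against P5 wt was 0.06 by thinning, 0.10 by voom and −0.67 to 0.47 without a library. Stab1 was −0.25 by voom at 1.5M, −0.01 to 0.31 without a library at P5, and −0.46 by voom and −0.12 to 0.20 without a library for the difference between ages. Pros1 in 1.5M wt against P5 wt was −0.33 to 0.49 without a library, and Elmo1 0.10 by median-of-ratios scaling and −0.29 to 0.02 without a library. In 1.5M KO against P5 KO, Gas6 was −0.05 to 0.42 and Cd36 −0.53 to 0.21 without a library. The Mfge8 difference between ages was 0.11 with a pseudocount of 0.1 and −1.64 with a pseudocount of 10, where it was called.

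Same-numbered libraries of different groups were not treated as paired in the main fit. Their deviations from group means correlated between −0.02 and 0.02 over 18 pairs. In 9 of the 18, the same number gave the highest correlation. Correlations this small do not show whether the samples were paired. With the replicate number as a block, 147 genes were called at P5 and 508 at 1.5M, and the member counts were 3 for KO against wt at 1.5M, 2 for KO against wt at P5, 3 with age in wild type, 3 with age in the knockout and 1 for the difference between ages. Under the block, the P5 calls of Havcr2 (adjusted p = 0.0619) and Socs3 (0.0552) were lost, and no other call among the 76 tested effects. Calls outside these effects, such as Cd300lf at P5, were not followed. Of 1188 recomputed fold changes of 76 tested effects, 1020 kept direction and side of the threshold, 146 lost the call, 4 gained one and 18 turned sign. Depth limits Gas6, Pros1 and Stab1, which rest on 1 to 15 molecules a group where counted.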
